A study of Mus musculus with 15 samples.

Results

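Fragments of the mouse genome that were listed as contacts of more than 1 gene promoter are described here. The values come from promoter-capture Hi-C, which ligates and sequences DNA fragments that lie near each other in the nucleus and enriches the products that hold a chosen promoter. In the deposited matrix each row pairs a promoter with a HindIII fragment, and the rows were grouped by the position of the fragment. Of 33334 distinct fragments, 2586 (7.76%) were listed with 2 or more promoter names and are called shared fragments below. The other 30748 were listed with 1 name and are called single-promoter fragments. The matrix held 36353 rows for 4429 promoters, of which 5605 rows (15.4%) belonged to shared fragments.

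The nuclei came from hippocampus and had been sorted for the neuronal protein NeuN and for a yellow fluorescent protein. All mice carried the ArcCreERT2 and R26R-STOP-floxed eYFP alleles, in which the promoter of Arc drives a tamoxifen-dependent recombinase, so a cell is labelled when Arc is active while 4-hydroxytamoxifen is present. The drug was given 1 h before contextual fear conditioning. Each condition was built up to 10000 nuclei by pooling the tissue of 10 to 12 animals. The titles name 4 groups: Basal (3 libraries), Early, Late and Reactivated (4 libraries each). The protocol describes tissue taken within hours of conditioning, days after it, or after a return to the fear-inducing cue, and does not say which title goes with which. The treatment label of every library, Reactivated included, states no recall, and its day of collection goes up by 1 with each library. What Basal, Early, Late and Reactivated stand for is therefore not settled by the labels, and the groups are named as in the titles. No age of the mice is stated in the labels.

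A gene promoter can be contacted by distant regulatory DNA when the chromatin between them folds into a loop. A single distant element can contact several promoters, and promoters that lie near each other can also touch, in which case a fragment contacted by a promoter may itself hold another promoter. In hippocampal neurons the activity-regulated genes, such as Junb, Npas4 and Bdnf, are the textbook case of promoters driven by distant enhancers during learning.

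Most shared fragments had 2 names (2291), while 193 had 3, 74 had 4, 21 had 5, 6 had 6 and 1 had 7. For 2585 of the 2586 the scores were identical in every row of the fragment. A score therefore belongs to the fragment and cannot be assigned to 1 of its promoters. The exception lay at chr9:35299706-35300657, where the Cdon and Zfp317 rows differed in 4 libraries. A fragment listed for a first promoter in some libraries and for a second promoter in others would look the same in the matrix as a fragment contacted by both in all of them. These 2 cases cannot be told apart for most fragments. For 214 shared fragments (8.28%) all names came from a single library, since no other library gave them a score. A further reading of the same kind is that 300 shared fragments (11.6%) had more names than libraries with a score.

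The libraries differed widely in the number of scored fragments and in the sum of scores. Sequencing depth was not measured here. Between 1500 and 10514 fragments had a score in 13 of the libraries, but Reactivated 1 had 32 and Reactivated 2 had 335. Sums of scores ran between 3097 in Reactivated 1 and 8218430 in Reactivated 4. Libraries of a group were joined into a set where 40% or more of the smaller one's fragments were also scored in the other, which left 9 library sets among the 15 libraries. Nothing in the labels says whether such pairs came from separate pools of mice, so p-values measure the spread between libraries, which may be technical.

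The promoters of 3 pairs that recur in the results below are printed first, because each pair was listed with the same fragment. Crk and Inpp5k share the fragment with a score in the most libraries, Junb and Prdx2 share the most recurrent fragment of an immediate-early gene, and Grk6 and Pdlim7 are listed with the fragment that has the most names. Each sequence covers the 250 bases before the annotated start, 5′ to 3′ on the strand of the gene, from RefSeq on build GRCm38.p6. Capitals mark 4 motifs on either strand: the GC box (GGGCGG), the CCAAT box (its name spells it), the TATA box (TATAAA) and the core of the cAMP response element (TGACGT). Those found do not overlap in the sequences shown. The build differs from the mm9 of the fragments, so positions of the 2 kinds are not compared. The Crk window is chr11:75679009-75679258 on the plus strand, that of Inpp5k chr11:75630770-75631019 on the plus strand, that of Junb chr8:84978749-84978998 on the minus strand and that of Prdx2 chr8:84969372-84969621 on the plus strand. Those of Grk6 and Pdlim7 are chr13:55444822-55445071 on the plus strand and chr13:55513447-55513696 on the minus strand.
Crk: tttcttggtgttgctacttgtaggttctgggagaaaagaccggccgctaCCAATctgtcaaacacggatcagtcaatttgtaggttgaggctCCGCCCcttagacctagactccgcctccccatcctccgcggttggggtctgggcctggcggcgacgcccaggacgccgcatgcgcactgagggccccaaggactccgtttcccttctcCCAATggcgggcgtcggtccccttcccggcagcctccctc
Inpp5k: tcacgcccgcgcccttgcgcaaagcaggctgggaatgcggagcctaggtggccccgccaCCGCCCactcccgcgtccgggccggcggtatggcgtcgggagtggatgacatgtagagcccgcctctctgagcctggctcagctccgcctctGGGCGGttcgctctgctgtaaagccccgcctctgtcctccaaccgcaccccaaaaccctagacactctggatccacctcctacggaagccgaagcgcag
Junb: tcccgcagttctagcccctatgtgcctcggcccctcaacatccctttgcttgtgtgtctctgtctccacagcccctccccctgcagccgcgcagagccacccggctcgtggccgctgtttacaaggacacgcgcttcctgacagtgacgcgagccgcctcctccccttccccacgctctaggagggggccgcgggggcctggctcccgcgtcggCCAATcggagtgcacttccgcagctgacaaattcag
Prdx2: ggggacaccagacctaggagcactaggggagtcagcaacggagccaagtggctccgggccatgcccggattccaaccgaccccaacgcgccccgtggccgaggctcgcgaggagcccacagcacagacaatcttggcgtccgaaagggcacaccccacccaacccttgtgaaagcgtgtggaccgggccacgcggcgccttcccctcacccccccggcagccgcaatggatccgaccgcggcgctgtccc
Grk6: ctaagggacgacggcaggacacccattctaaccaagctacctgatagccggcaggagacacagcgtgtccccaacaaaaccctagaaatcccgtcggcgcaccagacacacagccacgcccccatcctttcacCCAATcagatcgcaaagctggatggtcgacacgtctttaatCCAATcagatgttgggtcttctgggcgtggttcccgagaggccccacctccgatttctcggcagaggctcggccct
Pdlim7: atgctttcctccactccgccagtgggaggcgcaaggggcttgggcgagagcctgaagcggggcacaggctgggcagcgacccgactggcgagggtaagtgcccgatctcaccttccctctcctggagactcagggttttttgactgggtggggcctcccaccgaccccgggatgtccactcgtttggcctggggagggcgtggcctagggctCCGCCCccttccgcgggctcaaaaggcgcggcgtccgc

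All 6 windows are rich in G and C, from 58% in Grk6 to 69.2% in Prdx2, and hold between 16 and 23 CpG dinucleotides. The GC box letters GGGCGG matched once in Crk, 2 times in Inpp5k and once in Pdlim7, and stood in 32.9% of the 27025 annotated windows of this length. The letters CCAAT matched 2 times in Crk, once in Junb and 2 times in Grk6, against 34.5% of all windows with a match. TATAAA (13.0% of windows) and the cAMP response element core TGACGT (6.56% of windows) matched in none of the 6. Letters match in a window by chance too, and these matches are a description of the sequence. A window was found for 3376 of the 4429 promoter names (76.2%), too few to compare promoters with and without shared fragments.

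**Figure D1:**
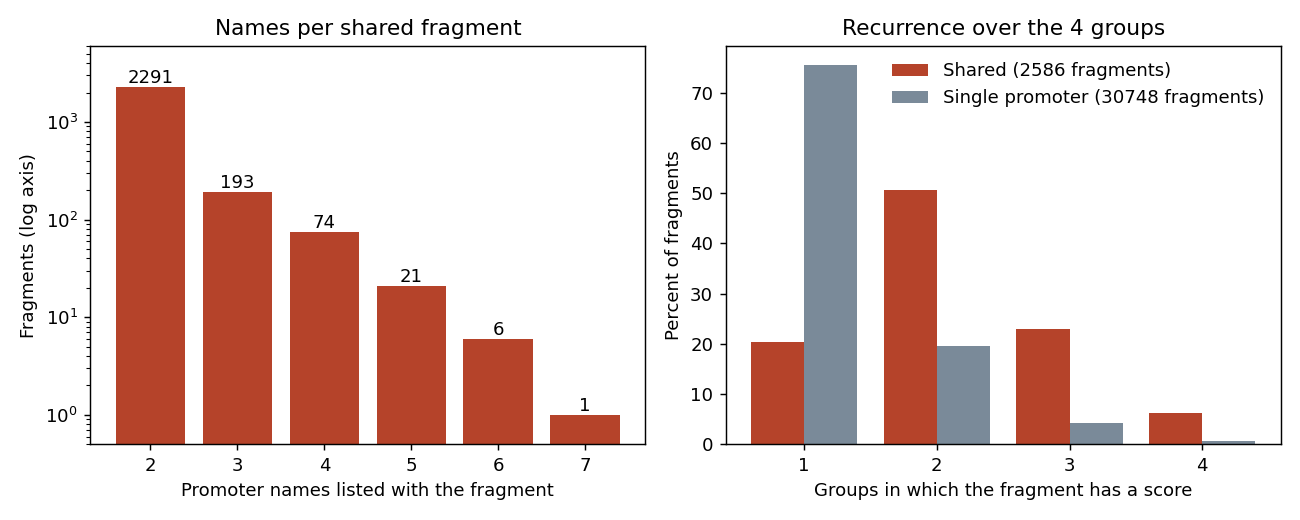
Left, number of shared fragments (log axis) by the number of promoter names listed with them, from 2291 with 2 names to 1 with 7. Right, percent of shared fragments (red, left bars) and single-promoter fragments (grey, right bars) with a score in 1, 2, 3 or 4 of the groups. Most shared fragments have a score in 2 groups and most single-promoter fragments in 1.

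Shared fragments were scored in more groups than single-promoter fragments. In 2 or more groups a score was found for 2058 of 2586 shared fragments (79.6%, 95% Clopper-Pearson interval 78.0 to 81.1%) and for 24.5% of single-promoter fragments. All 4 groups scored 160 shared fragments (6.19%) and 213 single-promoter fragments (0.693%). The mean number of libraries with a score was 3.58 for shared fragments and 2.06 for single-promoter fragments, and the highest was 13 and 14. Among the fragments scored in a group, those seen in that group alone made up 5.45% of shared and 39.7% of single-promoter fragments in Basal, 10.2% and 62.2% in Early, 11.0% and 61.9% in Late, and 10.0% and 63.6% in Reactivated. Fragments are not replicates, and the interval covers counting error alone.

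The difference was seen in each of the 15 libraries. Of the scored shared fragments of a library, 91.1 ± 3.70% (SD, n = 15 libraries) also had a score in another group, against 42.2 ± 12.8% of its single-promoter fragments. The difference averaged 49.0 ± 11.6 percentage points and ran from 32.5 in Basal 2 to 72.4 in Reactivated 1 (3 shared fragments). With the 9 library sets in place of the libraries it was 48.3 points. No p is given, because a fragment that pools several listings would have more chances of a score, which would favour this direction by itself. Whether shared fragments arose in this way was not tested.

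What such pooling would give can be set out by arithmetic that treats the pooled fragments as independent. Taking 2 single-promoter fragments at random and pooling their groups would, from their observed patterns, give a score in 2 or more groups 84.6% of the time, while 80.3% of the 2291 fragments with 2 names had one. For all 4 groups the same arithmetic gives 4.48%, against 5.72% of the fragments with 2 names. The recurrence of fragments with 2 names was thus near that of 2 pooled listings. How much of it is the same contact seen again cannot be told from these values. For fragments with more than 2 names the arithmetic was not done.

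**Figure D2:**
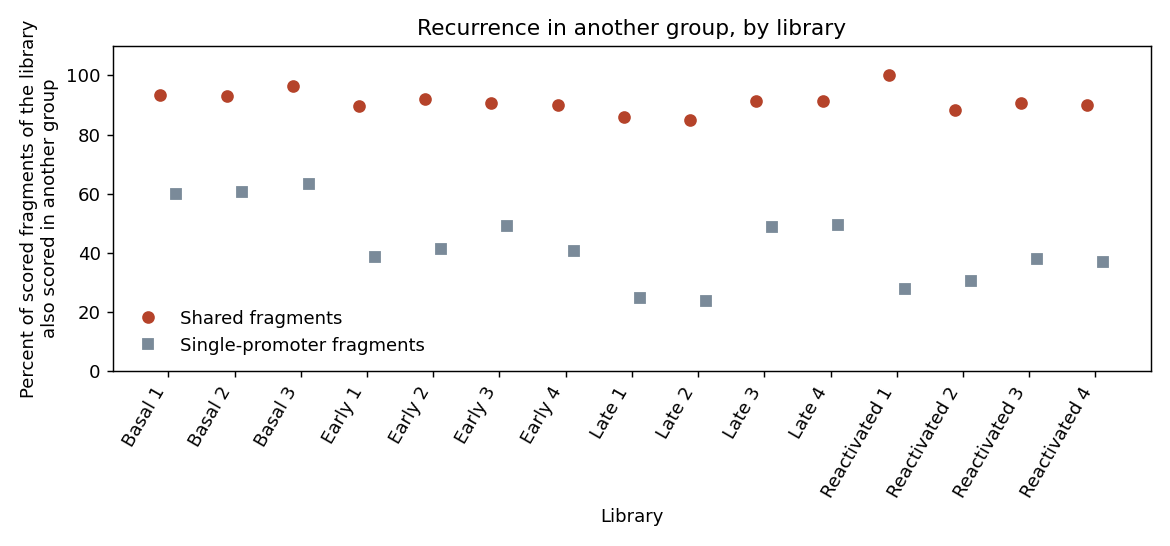
For each library (horizontal axis), the percent of its scored shared fragments (red circles) and single-promoter fragments (grey squares) that also had a score in another group. The red circle is above the grey square in all 15 libraries.

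Recurrence did not climb steadily with the number of names. A score in 2 or more groups was found for 80.3% of fragments with 2 names, 75.1% with 3, 67.6% with 4, 81.0% of 21 with 5 and 100% of the 7 with 6 or 7. In the pooling arithmetic a further listing cannot lower this percent, whereas the observed percent was lower with 3 and 4 names than with 2. It was higher with 5, 6 or 7 names, in few fragments. Whether pooling accounts for fragments with more than 2 names was not tested. Among pairs of groups, Early with Late was the most frequent combination of shared fragments (319, 12.3%), followed by Late with Reactivated (299, 11.6%) and Early with Reactivated (294, 11.4%). Pairs with Basal were less numerous, at 135 with Late (5.22%), 132 with Reactivated (5.10%) and 128 with Early (4.95%). The order differed in single-promoter fragments, where Basal with Late (4.41%) and Basal with Early (3.81%) came before Early with Late (3.26%), Early with Reactivated (3.15%), Basal with Reactivated (3.11%) and Late with Reactivated (1.88%). This difference in order was not tested. Basal had 3 libraries and 1028 scored shared fragments, against 4 libraries and 1474 to 1536 such fragments for each other group. Of single-promoter fragments, 10.0% were scored in Basal alone, against 20.2 to 23.6% for each other group alone. The part of these counts in the order of the pairs was not tested. Pooling was not worked out by pair of groups.

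Over all shared fragments the difference in the size of the scores did not pass the test. The median log2 score was 5.98 ± 2.02 for shared and 6.28 ± 1.65 for single-promoter fragments (SD, n = 15 libraries), a mean difference of -0.30 and a median of 0. An exact two-sided sign-flip permutation test over the libraries gave p = 0.343, adjusted 0.343 over 2 tests, with 6 of 15 libraries higher. The mean rested on Reactivated 1 and 2 and was 0.016 without them (exact p = 0.63). In an alternative setting, the 295 fragments with 3 or more names, the difference was 0.22 (exact sign-flip p = 0.0144, adjusted 0.0144 over 2 tests). That adjustment does not cover the other alternatives tried, and the libraries of a set were counted singly.

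The most recurrent shared fragment was listed with Crk, an adaptor protein of kinase signalling, and Inpp5k, an inositol phosphate phosphatase, at chr11:75494302-75502828. It had scores of 533, 313 and none in Basal, 458, 989, 366 and 159 in Early, 2494, 2715, 243 and 127 in Late, and none, 502, 6004 and 5184 in Reactivated. The 2 highest are Reactivated 3 and 4, and the ranges of all 4 groups overlap. Also scored in 13 libraries was chr2:84717973-84722413, listed with the Nogo receptor homologue Rtn4rl2, with Smtnl1, with the tankyrase-binding protein gene Tnks1bp1 and with Ube2l6, a conjugating enzyme for the ubiquitin-like ISG15. Its scores were 884, 514 and 59 in Basal, 752, 985, 876 and 547 in Early, 2217, 2574, 2635 and 1598 in Late, and none, none, 440 and 480 in Reactivated. The 4 Late libraries were above all others, which was seen after the values were known, and no comparison of this fragment passed limma.

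The highest scores of this set belonged to a fragment of 275 bp, chr16:49856581-49856855, listed with Cd47, a cell-surface signal that restrains phagocytosis, and Pvrl3, the adhesion molecule nectin-3. It had 3816, 2158 and 37 in Basal, 2822, 5206, 7073 and 3687 in Early, none, none, 7037 and 4574 in Late, and none, none, 9867 and 12167 in Reactivated. The gaps fall on Late 1 and 2, with sums of scores of 120145 and 138564, and on Reactivated 1 and 2, with 3097 and 36997. Basal 3 had a sum of 110226 and Early 2 had 1500 scored fragments, and both had a score here. The part of these library totals in the gaps was not tested. The neurofilament genes Nefl and Nefm, with the microtubule regulator Stmn4, shared chr14:68731199-68737403, which had 848, 492 and 39 in Basal, 502, none, 122 and 63 in Early, none, none, 1017 and 764 in Late and none, none, 2562 and 2615 in Reactivated. The fragment of Slc3a2, the heavy chain of amino acid transporters, and Taf6l at chr19:8845296-8846217 had 39 and 37 in Reactivated 3 and 4, against 1102 and 625 in Late 3 and 4 and 1747, 904 and 9 in Basal. None of these differences passed the test across all fragments.

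**Figure D3:**
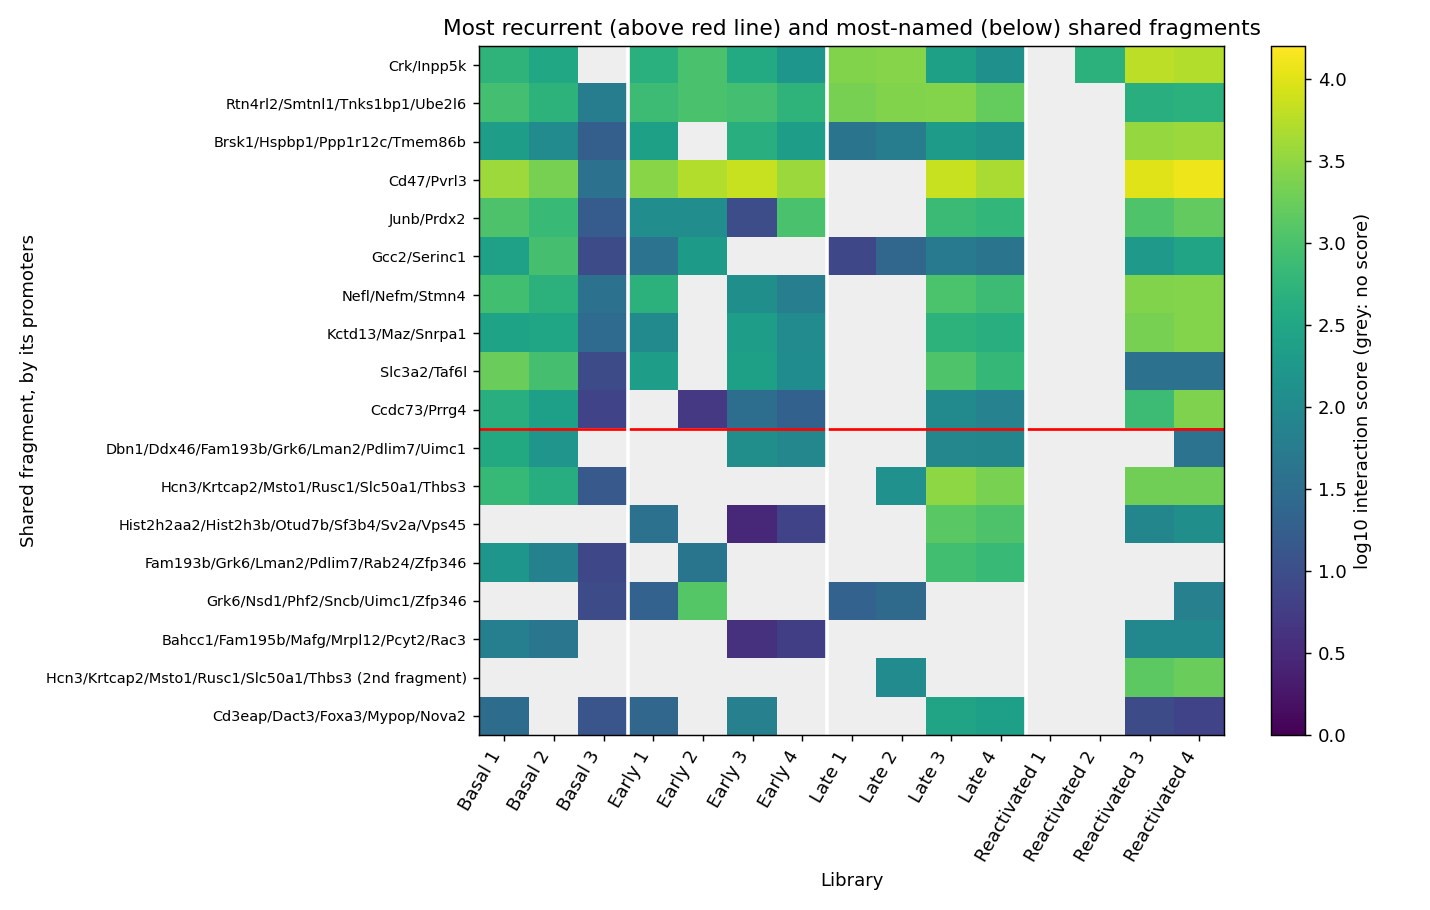
Interaction scores (log10 colour scale, grey for no score) of the 10 most recurrent shared fragments, above the red line, and the 8 with the most names, below it, in the 15 libraries. The grey columns of Reactivated 1 and 2 and the gaps in Late 1 and 2 run through most fragments.

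The fragment with 7 names lay at chr13:55671429-55675559 and was listed with Dbn1, which encodes the spine actin-binding protein drebrin, the splicing helicase gene Ddx46, Fam193b, the receptor kinase gene Grk6, the cargo lectin gene Lman2, Pdlim7 and the DNA-damage gene Uimc1. It had scores in 7 libraries, 359 and 157 in Basal 1 and 2, 118 and 87 in Early 3 and 4, 87 and 86 in Late 3 and 4, and 40 in Reactivated 4. It therefore had as many names as libraries. The second fragment by names, chr3:89049961-89053198, was listed with the pacemaker channel gene Hcn3 and with Krtcap2, Msto1, Rusc1, the sugar transporter gene Slc50a1 and Thbs3, and had 661, 414 and 15 in Basal, none in Early, none, 134, 3011 and 2257 in Late, and none, none, 1936 and 1924 in Reactivated. The adjacent fragment chr3:89041023-89049958 carried the same 6 names and was scored in 3 libraries, with 105 in Late 2 and 1365 and 1711 in Reactivated 3 and 4. A fragment at chr3:95871845-95872960 joined the histone genes Hist2h2aa2 and Hist2h3b with Otud7b, Sf3b4, the synaptic vesicle gene Sv2a and Vps45. It had no score in Basal, 38, none, 3 and 7 in Early, none, none, 1313 and 1062 in Late, and none, none, 85 and 122 in Reactivated.

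Fragments with 3 or more names formed 170 clusters when fragments within 500 kb were joined, and 59 clusters held 2 or more. The largest held 12 fragments and 19 promoters over 1093.5 kb of chromosome 11, among them Alox8, Rangrf, the synaptic fusion gene Vamp2, the RNA polymerase II gene Polr2a and the FMRP relative Fxr2. The next held 9 fragments and 15 promoters around Grk6 on chromosome 13, and the third 8 fragments and 10 promoters around the forkhead factor gene Foxa3 and the NF-kappaB gene Relb on chromosome 7.

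Shared fragments were more frequent where fragments of many promoters were listed. For each fragment the other promoters with a listed fragment within 500 kb were counted, without use of promoter positions. The percent shared was 3.08% with 0 to 2 such promoters, 5.62% with 3 to 5 and 7.91% with 6 to 10. It was 12.4% with 11 to 20 and 19.8% of the 324 fragments with 21 or more. This count and the shared fragments come from the same listings, so the values are a description. The median number of such promoters was 8 for shared fragments, 10 for those with 3 or more names, and 6 for single-promoter fragments. By chromosome the share was highest on chromosome 7 (14.3%), 11 (12.0%) and 8 (10.4%) and lowest on 12 (5.16%) and 18 (5.34%). Over 20 chromosomes it went with the number of listed promoters per Mb (Pearson r = 0.76, Spearman rho = 0.82), a description in which the 2 measures share the list of promoters. Shared fragments were somewhat longer, with a median of 3219 bp against 2921.5 bp for single-promoter fragments. The part of the density of listings in the other results was not tested.

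**Figure D4:**
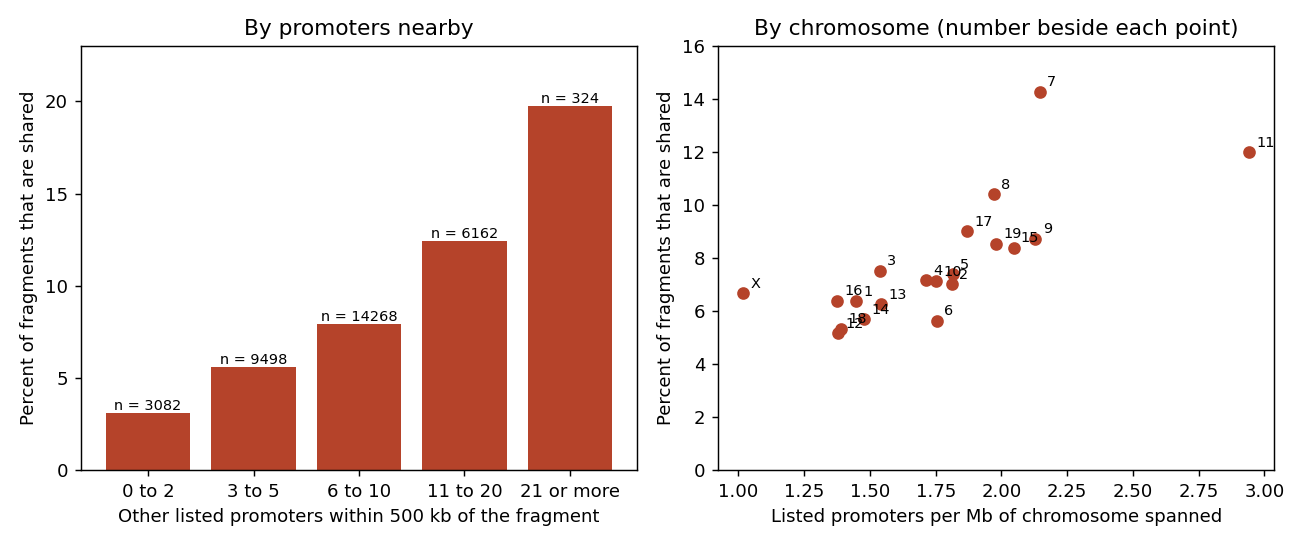
Left, percent of fragments that are shared by the number of other promoters with a listed fragment within 500 kb, with the number of fragments above each bar, from 3.08% to 19.8%. Right, percent shared against listed promoters per Mb for 20 chromosomes, chromosome Y with its 1 fragment left out, with chromosomes 7 and 11 at the top.

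Of the 4429 promoters, 2673 (60.4%) were listed with at least 1 shared fragment and 120 with shared fragments alone. Promoters with a shared fragment had a median of 8 listed fragments, against 4 for promoters with none. The shared fragments linked 2992 pairs of promoters. Of these, 2537 pairs (84.8%) shared 1 fragment and 455 shared 2 or more. A pair had a median of 6.25% of its fragments in common and at most 50%, and in 0 pairs were all fragments the same.

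Lca5, the gene of the ciliary protein lebercilin, and Phip, a chromatin-binding WD-repeat protein, shared the most fragments, 7 of 35 and 37. Acot7, a brain acyl-CoA thioesterase, and Rnf207 shared 6 of 9 and 11. Ccdc73 and Prrg4 shared 5 of 12 and 14 and are neighbours. Of these, chr2:104696936-104704052 had 10 scored libraries, with 424, 235 and 7 in Basal, none, 5, 33 and 20 in Early, none, none, 100 and 74 in Late, and none, none, 753 and 2425 in Reactivated. Another Ccdc73 and Prrg4 fragment, chr2:105042353-105052199, was scored in Late 3 and 4 (241 and 151) and in Reactivated 3 and 4 (3041 and 3622) and in no other library. Thsd7a and Tmem106b, a lysosomal membrane protein gene, also shared 5 fragments, and Fam193b, Grk6, Lman2 and Pdlim7 shared 5 in every pairing among them.

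Some partners were adjacent and others far apart. The order of both promoters on the chromosome was known for 2947 pairs, of which 27.5% had no other listed promoter between them and 63.0% at most 5. Pairs that shared 2 or more fragments were adjacent in 44.3% of 449 cases, against 24.4% of the 2498 pairs that shared 1. At the other end, 296 pairs (10.0%) had more than 100 listed promoters between them. For 1687 fragments with 2 names, the centre of each promoter's single-promoter fragments could be placed, and 47.2% of the 1687 lay between the 2 centres. The median distance was 95.4 kb to the nearer centre and 671 kb to the farther one. Single-promoter fragments lay a median of 221 kb from their own centre. They have 1 distance each, so that value is not comparable with the smaller or larger of 2. Bait positions are not used here, so these are not distances to the promoters. In 8 shared fragments a name is annotated on another chromosome. The genes were Orai2, 1 fragment, and the ribosomal protein genes Rpl23a with 1, Rpl21 with 3 and Rps27a with 3. Ribosomal protein genes have many processed copies in the genome, and whether the listed promoters lie at such copies was not tested.

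The bZIP factor gene Crebzf had the most partners, 40, through 32 of its 163 fragments. It was followed by Grk6 with 15, Rangrf and Uimc1 with 14 each, and Foxa3 and the lipoxygenase gene Alox8 with 13 each. Crebzf stood apart by library. It was listed with 8 of 32 scored fragments in Reactivated 1 (25.0%) and 139 of 335 in Reactivated 2 (41.5%), against 0.0797 to 0.489% in the other 13 libraries. Of its 32 shared fragments, 22 had a score in Reactivated 1 or 2, and these were 22 of the 43 shared fragments scored there. Its partners lie along chromosome 7 and include the DNA repair helicase gene Ercc2 and the vesicular glutamate transporter gene Slc17a6. Without the Crebzf fragments 13.6% of fragments on chromosome 7 were shared.

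Some fragments also repeated the scores of another fragment. Among fragments of a chromosome, 202 pairs had the same score, of at least 100, in 2 or more libraries, and 96 of these pairs held a shared fragment. This search was added after such a pair was seen. Of the 1486 shared fragments with scores of at least 100 in 2 or more libraries, 99 (6.66%) were in such a pair, against 281 of 11065 single-promoter fragments (2.54%). Over all fragments, shared ones were scored in more libraries (mean 3.58 against 2.06). They also had more other listed fragments within 500 kb (median 29 against 21). The part of these in the 2 percentages was not tested. The fragments of a pair lay a median of 78.7 kb apart, and 25 pairs had a promoter name in common. The fragment of Ubl5 and Zfp266 at chr9:20260409-20266343 and that of Zfp26 and Zfp846 at chr9:20311986-20326168 both had 774 and 435 in Basal 1 and 2, 163 and 75 in Early 3 and 4 and 752 and 810 in Reactivated 3 and 4. They differed in Late, with 10, 15, none and none for the first and none, none, 923 and 510 for the second. The fragment of Magea10 and the creatine transporter gene Slc6a8 at chrX:70901813-70911892 matched a fragment of Pnck at chrX:70914988-70921798 in all libraries but Late 1 and 2. Whether such pairs are 1 contact listed from both of its ends was not tested.

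Among immediate-early and activity-regulated genes, 16 of 25 listed promoters (64.0%) had a shared fragment, against 60.4% of all promoters. The bZIP gene Crebzf, described above, is counted in this list, and without it the count was 15 of 24 (62.5%). Junb, a subunit of the AP-1 transcription factor, had 7 of its 13 fragments shared, with 5 partners. The fragment of Junb and the peroxiredoxin gene Prdx2 at chr8:87511025-87512386 had 1077, 682 and 17 in Basal, 113, 114, 10 and 981 in Early, none, none, 729 and 602 in Late, and none, none, 1123 and 1542 in Reactivated. Elmo3 and Junb shared chr8:107821241-107824615, with scores in 9 libraries of all 4 groups. Isyna1 and Junb shared chr8:87491274-87494111, with 1260, 918 and 16 in Basal, 458, none, 399 and 199 in Early, 21, 9, none and none in Late, and none in Reactivated. The 4 Reactivated libraries were thus without a score and Basal had 3 of 3. That pattern was found in 36 shared fragments (1.39%) and in 0.933% of all fragments, and Reactivated 1 and 2 had only 32 and 335 scored fragments.

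A fragment of Npas4, an activity-induced transcription factor, at chr19:5137577-5140865 was shared with Catsper1, Sf3b2 and Cnih2, an auxiliary subunit of AMPA receptors. It had 511 and 319 in Basal 1 and 2, 106 and 39 in Early 3 and 4 and 243 and 151 in Late 3 and 4, and none in the 4 Reactivated libraries. Another, shared with Catsper1 alone, had 83 and 69 in Reactivated 3 and 4 and 47 and 17 in Early 3 and 4. Nr4a3, an inducible nuclear receptor, and Stx17 shared chr4:48159451-48171711, with scores in 7 libraries of all 4 groups. Homer1, a postsynaptic scaffold gene, shared 5 fragments. The 1 it had with Papd4 reached 1710 and 2176 in Reactivated 3 and 4, against 108 and 61 in Late 3 and 4 and 61 in Early 1. Bdnf, the gene of a neurotrophin, shared 4 fragments, and that with Lin7c had 44 and 31 in Reactivated 3 and 4 and 87 and 57 in Late 3 and 4 and no score elsewhere. Creb1 and Jund shared 4 each, Sik1 3, Dusp5 and Nr4a1 2 each, and Btg2, Dusp6, Ier5, Maff and Nr4a2 1 each.

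Of 25 listed promoters of glutamate receptors and their auxiliary subunits, 13 (52.0%) had a shared fragment. Among them, Cnih3 and Grm2 had 4 each, Grin1 and Grm6 3 each, and Cacng8, Cnih2, Gria2, Gria3, Grik4, Grin2a, Grm4 and Grm8 1 each. The AMPA receptor gene Gria2 and Fam198b shared chr3:80365416-80367686, which had 17 in Early 1, 83 and 57 in Late 3 and 4, and 806 and 978 in Reactivated 3 and 4. The NMDA receptor gene Grin2a and Emp2 shared chr16:9911623-9913163, with 240 and 190 in Late 3 and 4 and 216 and 173 in Reactivated 3 and 4. The kainate receptor gene Grik4 and Thy1, a neuronal surface glycoprotein gene, shared chr9:43809905-43810451, with 1312 and 1154 in Reactivated 3 and 4 and 13 in Early 1. No 2 members of this list shared a fragment with each other.

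The other lists are given by their counts, beside the same 60.4% of all promoters. A shared fragment was found for 42 of 58 proteasome and ubiquitin promoters (72.4%), with 7 for Ube2j1 and 5 each for Fbxw11, Usp10 and Usp45. It was found for 67 of 103 solute carriers (65.0%), with 9 for the neuronal glutamate transporter gene Slc1a1 and 7 each for Slc16a11, Slc25a42 and Slc3a2. It was 35 of 55 for mitochondrial proteins (63.6%), where Atp5a1, Cox5a, Cox6c, Mrpl12 and Mrpl15 had 4 each, and 73 of 124 for zinc finger genes (58.9%), where Zfp26, Zfp579 and Zfp687 had 5 each. Of 40 promoters with symbols of the Rpl and Rps kind 25 had one (62.5%), but 8 of the 40 are ribosomal S6 kinase genes, and without these it was 22 of 32 (68.8%), with 8 for Rps23. Histone genes had 9 of 11, with 4 each for Hist1h2be and Hist2h2aa2, DNA repair genes 8 of 15, with 5 for Ercc2, tRNA synthetases 2 of 2, Vars with 2 and Aars2 with 1, and protocadherins 1 of 5, Pcdh8 with 1. These lists were made with results of the same data known, and no difference between a list and all promoters was tested. The lists also differed in listed fragments per promoter. The median was 8.5 for proteasome and ubiquitin, 7 for solute carrier, 6 for mitochondrial and 4.5 for zinc finger promoters. It was 9 for immediate-early, glutamate receptor and histone promoters, 6 for DNA repair and 5.5 for the Rpl and Rps symbols. For tRNA synthetases it was 5 and for protocadherins 4. The order of the lists by this median was not their order by percent, as glutamate receptor promoters had 52.0%. Over all promoters it was 8 for those with a shared fragment and 4 for those with none.

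The design asks whether promoter contacts change between the groups. The percent of the scored fragments of a library that were shared did not separate them. It was 12.7 ± 0.802% in Basal (SD, n = 3), 12.4 ± 0.506% in Early, 12.9 ± 0.356% in Late and 12.2 ± 1.90% in Reactivated (n = 4 each). Exact two-sided permutation tests of the 6 pairs of groups gave p from 0.171 to 0.971, each 0.971 after adjustment over the 6, where the smallest possible p was 0.0286. Reactivated 1, with 3 of 32 fragments shared (9.38%), was the lowest library, and the others lay between 11.8 and 13.3%.

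**Figure D5:**
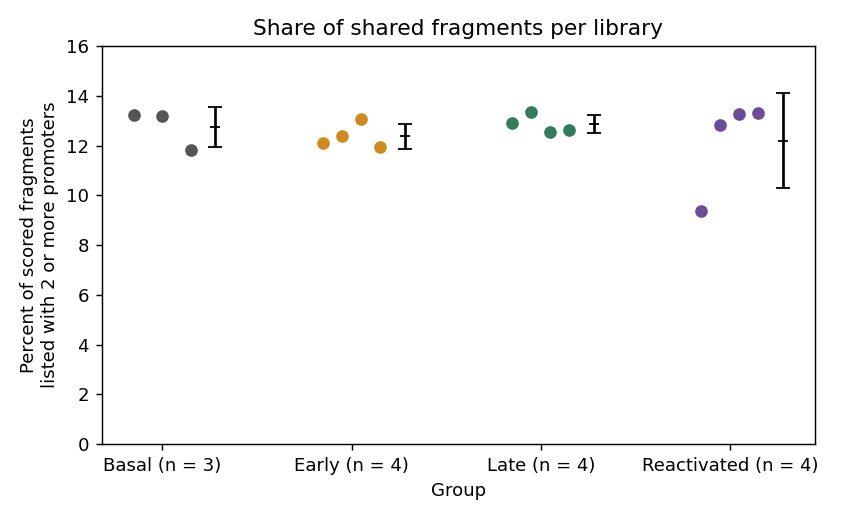
Percent of the scored fragments of each library (points) that are shared, by group, with the group mean and SD as a black bar with whiskers beside the points. All libraries but Reactivated 1, at 9.38%, lie between 11.8 and 13.3%.

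No fragment passed limma with Benjamini-Hochberg adjustment over 33334 fragments in any of the 6 comparisons (percent called 0 in each, and 0 shared fragments). At an unadjusted p under 0.05 the percent of fragments called, first for shared fragments and then for all fragments tested, was 7.73 and 10.9 in Early against Basal, 7.54 and 15.9 in Late against Early, 16.8 and 27.1 in Reactivated against Late, 8.70 and 13.3 in Late against Basal, 15.4 and 20.6 in Reactivated against Basal, and 14.6 and 21.9 in Reactivated against Early. Shared fragments were below the background in each, but this turned round without Reactivated 1 and 2, where the percentages were 10.1 and 7.58, 2.82 and 1.74, 39.2 and 29.3, 8.78 and 7.37, 41.4 and 33.0, and 40.3 and 29.6 in the same order. With library sets as means they were at most 0.0773 and 0.159. For a simulation, scores were shuffled over fragments within each library, which removes the likeness of libraries in a set. In it limma recovered from 189 to 200 of 200 fragments given a score of 10000, near the highest in the matrix. That score was set in every library of 1 group, with none in the other. Limma also called 3 to 18 other fragments there, and 1 to 10 with no change made. Smaller differences were not simulated. The sum of scores of Reactivated 1 was 3097, so recovery in the real libraries is not shown. Without Reactivated 1 and 2, limma called 801 shared fragments in Reactivated against Late (795 higher, 6 lower), 819 against Basal (802 higher, 17 lower) and 835 against Early (833 higher, 2 lower), of 8207, 8120 and 8120 called among all fragments. These are 31.0, 31.7 and 32.3% of shared fragments, against 24.6, 24.4 and 24.4% of all. In the same fit 16 shared fragments were called in Early against Basal (0.619% against 0.516% of all), 6 in Late against Early (0.232% against 0.168%) and 17 in Late against Basal (0.657% against 0.651%). The counts for Reactivated rest on Reactivated 3 and 4, which form 1 library set and have the highest sums of scores. A change with the group and a difference between libraries in the sum of scores therefore cannot be told apart.

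The fragments with the largest differences were set by which libraries had no score. Ace, the gene of angiotensin-converting enzyme, and Cyb561 shared chr11:105820595-105831583. It had 153, 606, 168 and 89 in Early and no score in Basal, a difference in mean asinh score of 5.96 (SE 2.58, limma adjusted p = 0.405). It also had no score in the 4 Late libraries, so Late minus Early was -5.96 (SE 2.39, adjusted p = 0.256), and 3628 and 4469 in Reactivated 3 and 4. Prr12 and Scaf1 shared chr7:52270871-52273707, with no score in Early or Reactivated, against 1422, 807 and 28 in Basal, a difference of -6.46 in both comparisons (SE 2.43, adjusted p = 0.236 and 0.199). Late had none, 6, 837 and 583. This is the fragment that repeats the scores of the Crebzf and Scaf1 fragment in Basal 1 and 2 and Late 3 and 4. Tmem109 and Tmem132a shared chr19:10756218-10760539, with 58, 56, 1189 and 838 in Late and no score in Early or Basal, a difference of 6.17 against each (SE 2.25 and 2.43, adjusted p = 0.256 and 0.295). Reactivated 3 and 4 had 214 and 174.

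The fragment of Cd2bp2, Mvp and the phosphatase gene Ppp4c at chr7:134168163-134171043 was even across Late, with 193, 233, 205 and 188, and had no score in Early. The difference was 6.01 (SE 2.73, adjusted p = 0.258), while Basal had 203, 147 and 19, and Reactivated 3 and 4 had 1262 and 1646. Ascl4, Prdm4 and Pwp1 shared chr10:85392992-85396117, with 7, none, none and none in Early and none, none, none and 19 in Late, against 3451, 2089 and 77 in Basal. The differences were -6.74 and -6.50 (SE 2.69 each, adjusted p = 0.328 and 0.330). Reactivated 3 and 4 had 2722 and 3343, within the range of Basal 1 and 2. Adam30 and Zfp697 shared chr3:97937546-97938759, without a score in Reactivated, against 21, 31, 2715 and 2143 in Late (difference -6.21, SE 2.09, adjusted p = 0.132). Its other scores were 21 in Basal 3 and 5 in Early 1. The cholesterol transporter gene Npc1l1 and the SNARE gene Ykt6 shared chr11:6098696-6101130, without a score in Reactivated, against 20, 20, 1195 and 909 in Late and 1263, 779 and 51 in Basal. These differences were -5.67 and -6.60 (SE 2.49 and 2.69, adjusted p = 0.132 and 0.199). Early 1 had 13.

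The higher values in Reactivated came mostly from Reactivated 3 and 4. The prion protein gene Prnp and Smox, a spermine oxidase gene, shared chr2:131659222-131663841, with none, none, 7404 and 7720 in Reactivated and none in Late (difference 4.81, SE 2.14, adjusted p = 0.133). Early 3 and 4 had 164 and 69, and Basal 3 had 7. Rgs2, a regulator of G protein signalling, and Trove2 shared chr1:145643667-145645787, with none, none, 6364 and 7297 in Reactivated and none in Early or Basal. The difference was 4.76 against each (SE 1.84 and 1.99, adjusted p = 0.151 and 0.199), and Late 2 had 21. A fragment of Mapk15, the neuronal splicing factor gene Rbfox2 and Zfp251 at chr15:77589374-77592946 was scored in 3 Reactivated libraries, with none, 172, 583 and 649, and in none of Late or Basal (difference 5.02, adjusted p = 0.132 and 0.199, SE 1.99 and 2.14). Early 2 had 633, about as high as Reactivated 3 and 4. Ahcyl2, Atp6v1f and Tspan33 shared chr6:29669219-29671007, with none, none, 6145 and 6563 in Reactivated and none in Early (difference 4.72, SE 1.95, adjusted p = 0.151). Its other scores were 18 in Basal 3 and 4 and 2 in Late 3 and 4.

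The remaining fragments picked for their size of difference were also without a call. Adam33, Pamr1 and Smox shared chr2:131320182-131322277, with 787, none, 838 and 445 in Early and none in Basal (difference 5.39, SE 2.89, limma adjusted p = 0.512). Late 3 and 4 had 1026 and 684, and Reactivated 3 and 4 had 2108 and 2244. Arl6ip5 and Uba3 shared chr6:97173296-97173860, with none in Late and 599, none, 1076 and 573 in Early (difference -5.45, SE 2.38, adjusted p = 0.256). Reactivated 3 and 4 had 1919 and 1670, and Basal 3 had 16. Cd300lg and the scaffold gene Mpp2 shared chr11:101853544-101854451, with 78, 85, 432 and 282 in Late and none in Basal (difference 5.82, SE 2.52, adjusted p = 0.330). Early had 33, none, 129 and 70, and Reactivated 3 had 3. Csrp2bp and the GDNF-family receptor gene Gfra4 shared chr2:144202401-144204268, with none in Late and 3485, 1842 and 10 in Basal (difference -6.69, SE 2.51, adjusted p = 0.228). Reactivated 3 and 4 had 387 and 403, and Early 4 had 158. D17H6S53E and Nfkbil1 shared chr17:35375824-35378603, and Klhl14 and Rnf138 shared chr18:21785854-21790056, both with none in Reactivated. Early had 319, none, 900 and 483 for the first and 336, none, 534 and 299 for the second (differences -5.21 and -4.97, SE 2.03 and 2.14, adjusted p = 0.151 each). Late 1 and 2 had 28 and 27 for the first, and Late 3 and 4 had 317 and 207 for the second.

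Counted by presence alone, few shared fragments separated 2 groups. In Early against Basal 2 shared fragments were scored in every Early and no Basal library, 0.0773% against a background of 0.072% of all fragments, and 40 in every Basal and no Early library, 1.55% against 0.807%. The counts were 7 and 1 in Late against Early (backgrounds 0.237 and 0.045%), 0 and 11 in Reactivated against Late (0.003 and 0.303%), 9 and 30 in Late against Basal (0.228 and 0.843%), 0 and 36 in Reactivated against Basal (0 and 0.933%) and 0 and 1 in Reactivated against Early (0.003 and 0.072%). A fragment must be scored in at least 3 libraries to be counted, which shared fragments reach more often, and Reactivated 1 has 32 scored fragments, which limits what can be scored in every Reactivated library.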

How the data were processed

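The deposited matrix holds, for 15 libraries, an interaction score of every listed promoter with a HindIII fragment, made by the authors and given in whole numbers from 2 to 13683, per the file headers. A dot stands for no score and was taken as 0. The build is mm9, per the submitters' processing notes. No source used here states the program, filters or normalization behind the score. Groups and numbers were taken from the titles. Rows were grouped by fragment. Members, gene lists and tests were chosen with earlier results of these data known.

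Scores were compared as asinh(score) with limma (version 3.58.1, robust, variance trend, no filter, under R 4.3.3 with statmod 1.5.0) over all 33334 fragments and 15 libraries, adjusted p under 0.05 by Benjamini-Hochberg. Percentages per library were compared by exact permutation or sign flips over libraries. The fit was tested on simulated data. It used no replicate block, because libraries with the same number in different groups did not deviate together (mean r = 0.0025 over 21 pairs). Promoter order came from RefSeq on GRCm38.p6, where 4278 names matched a symbol and 141 a synonym. Tables, tests and figures were made in Python 3.11.15 with networkx 3.6.1, scipy 1.17.1, matplotlib 3.10.9, pandas 2.3.3 and numpy 2.4.6.

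Named were the 8 fragments with the most names, the 10 scored in the most libraries, the leading pairs and hubs, per comparison the 2 largest rises and falls, all members with shared fragments of the immediate-early and glutamate receptor lists, and 2 members of each other list. Some members that this rule names are not reported here. Repeated scores, the share of Crebzf per library and the list counts without Crebzf or S6 kinase genes were examined after the values were seen. Alternatives covered the score threshold, scale, filter, scaling, variance trend, library sets, listings and left-out libraries.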

Additional observations from a re-analysis of the deposited data

Results flagged for a closer look

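The percent of scored fragments that are shared was 9.375 in Reactivated 1, far below the other Reactivated libraries by Dixon's test. It rests on 3 of 32 fragments. The same test was run on 12 groups of library values and 14 groups of named fragments, and chance marks about 1 in 20 groups.

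The excess of shared over single-promoter fragments in recurrence differed between groups in 2 of 12 tests before adjustment. It averaged 59.0 percentage points in Reactivated and 33.0 in Basal, a difference of 25.98 (exact permutation p = 0.0286, adjusted 0.171). Against Early, at 48.1 points, the difference was 10.88 (exact permutation p = 0.0286, the smallest possible, adjusted 0.171). Neither passed the adjustment. In Reactivated 1 to 4 the excess was 72.4, 57.9, 52.7 and 53.0 points. It rested on 3 scored shared fragments in Reactivated 1 and 43 in Reactivated 2. The percent of single-promoter fragments scored in another group was 33.2 in Reactivated, 42.4 in Early and 61.2 in Basal, and that of shared fragments was 92.2, 90.5 and 94.2. The part of the number of scored fragments per library in these values was not tested.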

How the results depend on the processing

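The score's maker is unknown, libraries differ widely in scored fragments and sums of scores, and a score cannot be assigned to 1 of several promoters. An absent score, above all in a library with few scored fragments, does not show an absent contact.

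The difference in recurrence, whose direction a pooling of listings would favour, was 45.8 to 51.9 points when single libraries were left out. The percent of shared fragments in 2 or more groups was 76.2% at scores of 5 or more, 69.4% at 10 or more, and 69.7 to 79.6% without single libraries, lowest without Early 1. The log2 score difference was 0.0158 without Reactivated 1 and 2 and 0.225 with 3 or more names, and -0.332 to -0.0610 without single libraries.

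Differences in percent shared were small under all alternatives and passed no test. Late minus Basal was -0.0150 at scores of 10 or more and -0.707 by listings, and without Reactivated 1 and 2 the Reactivated differences were 0.439 against Late, 0.561 against Basal and 0.923 against Early. Without single libraries the ranges were -0.341 to 0.365 for Late against Basal, -1.03 to 0.286 for Reactivated against Late, -0.996 to 0.408 for Reactivated against Basal and -0.544 to 0.770 for Reactivated against Early. With a replicate block, added for these percentages after seeing the data, the differences were -0.212 for Early against Basal, 0.484 for Late against Early, -0.656, -0.906 and -0.172 for Reactivated against Late, Basal and Early, and 0.194 for Late against Basal. The block changed no call, and 0 shared fragments passed limma with it.

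Shared fragments passing limma were 0 in each comparison as reported. With no variance trend they were 9 for Early and 12 for Late against Basal, 10 for Reactivated against Basal, 2 for Late and 0 for Reactivated against Early, and 2 for Reactivated against Late, 0 to 0.464% of shared fragments against 0.0150 to 0.564% of all. Without Reactivated 1 and 2 they were 16 for Early, 17 for Late and 819 for Reactivated against Basal, 6 for Late and 835 for Reactivated against Early, and 801 for Reactivated against Late. Without single libraries they ranged from 0 to 139 for Early, 154 for Late and 190 for Reactivated against Basal, from 0 to 8 for Late and 213 for Reactivated against Early, and from 0 to 223 for Reactivated against Late. The high ends came without Basal 3 for Early and Late against Basal (and 158 for Reactivated), without Early 1 for Late against Early, and without Reactivated 1 or 2 for the other 3. At these high ends the percent of shared fragments called, beside that of all fragments, was 5.38 and 5.73 for Early, 5.96 and 6.12 for Late and 7.35 and 14.2 for Reactivated against Basal, 0.309 and 0.252 for Late and 8.24 and 13.6 for Reactivated against Early, and 8.62 and 14.3 for Reactivated against Late. Of the named differences, 517 alternative values kept their side of the threshold, 35 gained a call and none reversed. The calls came without Reactivated 1, 2 or both, without Basal 3 or Early 1, or with no variance trend. Without Reactivated 1 and 2, Ace and Cyb561 had limma adjusted p = 5.19e-05 in Early against Basal and 2.84e-05 in Late against Early. In that fit Tmem109 and Tmem132a had 0.00302 in Late against Basal and 0.00424 in Late against Early. The cause was not tested.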
